A study of Homo sapiens with 90 samples.

Results

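The Krüppel-like factors (KLF) described here are 9 of the 53893 gene IDs in the table: KLF2, KLF3, KLF4, KLF5, KLF6, KLF7, KLF10, KLF11 and KLF13. They were chosen by name, with earlier results of these data known, and all 9 passed the filters on low counts in every cell line. The study sequenced RNA of 6 human cancer lines kept in culture, each in 5 arms of 3 libraries, which makes 90 libraries. In every line a drug against the kinase pathway that drives it was given for 48 h together with THZ1, for 7 days alone and for 48 h alone. THZ1, a covalent inhibitor of the transcriptional kinase CDK7, was also given alone for 48 h, and the vehicle was 0.1% DMSO for 48 h.

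In the melanoma line A375 the targeted drug was 1 µM Vemurafenib, a BRAF inhibitor, and THZ1 was given at 50 nM. In the lung cancer line A549 it was 200 nM GSK1120212, the MEK inhibitor trametinib, with THZ1 at 150 nM. In the lung cancer line H3122 it was 250 nM Crizotinib, an ALK inhibitor, with THZ1 at 50 nM. In the gastric cancer line N87 it was 100 nM Lapatinib, an inhibitor of EGFR and ERBB2, with THZ1 at 25 nM. In the lung cancer line PC9 it was 1 µM Erlotinib, an EGFR inhibitor, with THZ1 at 100 nM. In the bladder cancer line RT112 it was 1 µM BGJ398, an inhibitor of FGF receptors, with THZ1 at 100 nM. Vehicle was sampled at 48 h only, so drug exposure and time in culture cannot be told apart at 7 days, and line, drug and dose cannot be told apart anywhere. Nothing in the labels tells whether the 3 libraries of a group are separate cultures. The p-values given for single lines therefore reflect the spread of these libraries alone, and that spread may be technical.

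KLF proteins bind GC-rich and CACCC-type DNA through zinc fingers at their C-terminal end, and differ mostly in the N-terminal part that recruits partners. KLF2, KLF4, KLF5, KLF6 and KLF7 are known mainly as activators, KLF3 as a repressor that binds CtBP, and KLF10, KLF11 and KLF13 as repressors that bind SIN3A. Several of the genes answer quickly to serum, growth factors or TGF-beta, and in epithelia KLF4 is known for differentiation and KLF5 for proliferation.

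Promoters of KLF2, KLF4 and KLF6 are shown because these genes varied most between libraries of a group and had the lowest fitted changes when THZ1 was added to the targeted drug. The sequences are RefSeq's (GRCh38.p14), the 250 bases before the start of transcription, read 5′ to 3′ on the gene's strand. For KLF2, at chr19:16324576-16324825 on the plus strand, capitals mark a match to the MEF2-type motif, CTA and TAG with any 4 bases between them. For KLF4, at chr9:107489770-107490019, and KLF6, at chr10:3785210-3785459, both on the minus strand, capitals mark the E-box CACGTG.
KLF2: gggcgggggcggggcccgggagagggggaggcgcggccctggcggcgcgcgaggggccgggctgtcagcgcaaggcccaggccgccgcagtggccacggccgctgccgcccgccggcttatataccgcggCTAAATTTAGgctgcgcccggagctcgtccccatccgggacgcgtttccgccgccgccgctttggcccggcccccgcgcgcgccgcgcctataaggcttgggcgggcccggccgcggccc
KLF4: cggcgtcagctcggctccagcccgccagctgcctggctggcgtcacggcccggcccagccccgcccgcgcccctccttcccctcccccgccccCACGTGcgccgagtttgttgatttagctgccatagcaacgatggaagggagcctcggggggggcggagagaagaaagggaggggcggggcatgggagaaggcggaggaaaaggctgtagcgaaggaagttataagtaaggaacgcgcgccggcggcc
KLF6: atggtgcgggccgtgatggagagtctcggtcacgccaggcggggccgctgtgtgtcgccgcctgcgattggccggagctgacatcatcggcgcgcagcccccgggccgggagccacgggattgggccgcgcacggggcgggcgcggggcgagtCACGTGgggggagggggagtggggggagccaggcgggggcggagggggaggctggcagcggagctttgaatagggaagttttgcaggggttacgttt
Windows of 7 of the 9 genes were searched, as KLF3 had no window and KLF10 was left out. The MEF2-type motif also matched in a window of KLF11, and the E-box in windows of KLF7 and KLF11. Searched on both strands, and to 50 bases past the start, the MEF2-type motif was in 2.73% of 35116 promoter windows of the same table and the E-box in 7.26%. The GC box GGGCGG, the kind of site that KLF proteins themselves bind, was in 45% of windows, and matched 6 times in the window of KLF2, 4 times in that of KLF4 and 2 times in that of KLF6. The CACCC box CACACCC, the AP-1 site TGANTCA, the CRE TGACGTC, the FOXO site TGTTTAC and the TATA box TATAAA were searched too, with shares of 7.56%, 7.71%, 3.45%, 3.42% and 11.5% of windows in that order, and their letters were not in these 3 windows. A match describes the letters only.

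Libraries held 5.64 to 14.36 M expected counts (median 11.0 M), and each of the 90 was nearest to a library of its own group. In A549 on GSK1120212 they held 6.20 to 6.38 M at 7 days, against 9.88 to 11.86 M at 48 h. Depth and time therefore go together in that comparison. Melanocyte markers summed to 682 to 1857 CPM (counts scaled to library totals) over the A375 libraries. SOX10 alone had 615 to 1447 CPM there, MITF 30.4 to 75.2 CPM and DCT 0 to 538 CPM. PMEL and MLANA had at most 3.97 and 4.14 CPM, and TYR was under 1 CPM. The median of PMEL was 1.65 CPM in A375, against 8.26 CPM in PC9. Urothelial markers summed to 802 to 2635 CPM over the RT112 libraries, with UPK3A under 1 CPM. The lung transcription factor NKX2-1 had 161 to 759 CPM in H3122, but at most 0.314 CPM in A549 and 1.48 CPM in PC9, and in N87 the gastric markers TFF1, TFF2, CLDN18 and GKN1 were under 1 CPM in every library. Blood cell markers summed to at most 1.51 CPM in any library. An earlier look at these data had found 5 libraries apart from their groups. They were replicate 1 of RT112 in all arms but THZ1 alone, which has no replicate 1, and the 7-day replicate 1 of H3122. THZ1 against DMSO in RT112 is thus not balanced for replicate 1. One A375 Vemurafenib 48 h library, replicate 4, carries a lung tissue label in place of skin.

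Levels of the KLF genes varied between libraries of 1 group, and often in the same library. In A375 on Vemurafenib for 48 h, KLF6 had 398, 123 and 154 CPM in replicates 1, 3 and 4, and KLF4 had 269, 90.1 and 94.1 CPM. KLF10 had 112, 43.0 and 41.9 CPM there and KLF5 111, 47.5 and 48.0 CPM. All 4 genes were highest in replicate 1, while KLF13 had 57.1, 47.3 and 51.1 CPM. In PC9 in DMSO the high library was replicate 4, with KLF6 at 80.9, 76.1 and 191 CPM and KLF10 at 86.7, 93.1 and 167 CPM in replicates 2, 3 and 4. In RT112 in DMSO it was replicate 1, with KLF2 at 75.9, 26.9 and 28.8 CPM and KLF6 at 685, 354 and 364 CPM in replicates 1, 2 and 3.

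The library highest for KLF6 in its group was also the highest for KLF2 in 21 of 30 groups, for KLF5 in 21 and for KLF4 in 20. Over all genes the median of this count was 10. SRF, a transcription factor of the serum response, and MEF2D were highest in the same library as KLF6 in 19 groups each. EGR1, an early response gene, was so in 15 and SMAD2 in 14. The counts of the listed genes upstream of KLF genes ran from 7, for MAPK7, to 19. EGR1 had 1634, 526 and 483 CPM in A375 on Vemurafenib for 48 h, so it was highest in the library in which KLF6 was. In RT112 in DMSO it went the other way, with 137, 212 and 203 CPM in replicates 1, 2 and 3, lowest where KLF6 was highest. The part that handling of single cultures or libraries has in these values was not tested. The highest library of a group stood over the lowest by a median ratio of 1.49 for KLF2, 1.28 for KLF4 and 1.27 for KLF6, against 1.09 for KLF13, and the widest ratio was 3.24, for KLF6.

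**Figure D1:**
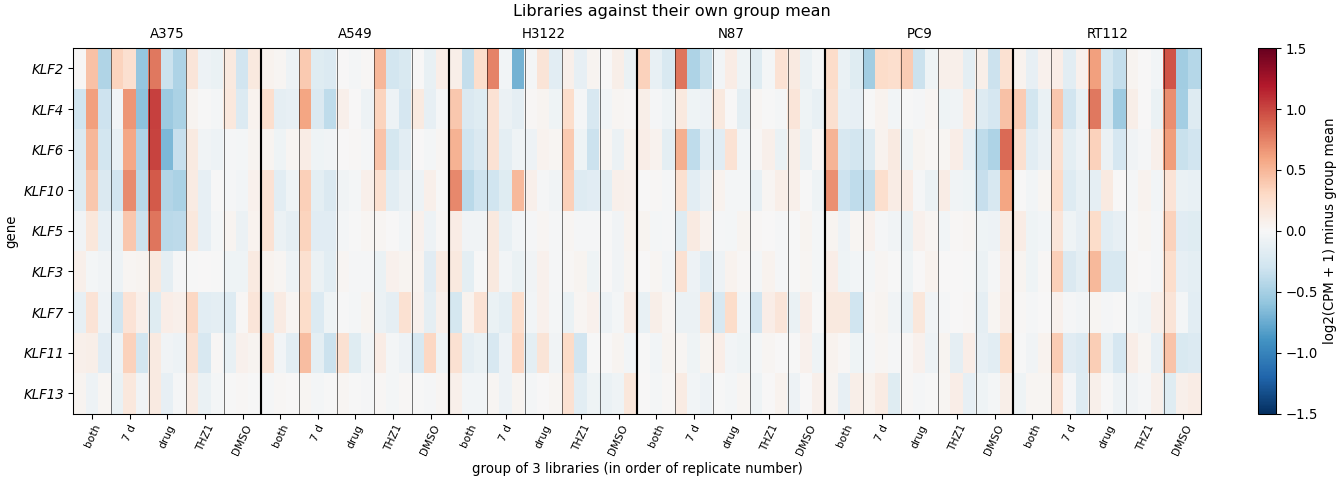
Columns are the 90 libraries in groups of 3, rows the 9 KLF genes, and colour gives each library's log2(CPM + 1) minus the mean of its group. KLF2, KLF4, KLF5, KLF6 and KLF10 are high together in some libraries, such as A375 Vemurafenib 48 h replicate 1. KLF10 does not always go with the others, and in RT112 BGJ398 48 h replicate 1 it is at -0.13, where KLF4 is at 0.79. KLF13 stays near 0, with a ratio of highest to lowest library of at most 1.32.

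In DMSO, KLF5 was the most abundant of the 9 per length in 3 lines. In CPM per kilobase of merged exons, KLF5 averaged 98.1 ± 21.7 in RT112, 85.4 ± 3.05 in H3122 and 85.0 ± 2.05 in N87 (SD, n = 3 each). In RT112 its range overlapped that of KLF6, next in order, at 78.2 ± 31.6 CPM per kilobase. KLF4 led in A375, at 20.9 ± 2.68, and in PC9, at 36.3 ± 10.2, and KLF10 led in A549, at 61.1 ± 3.31 (SD, n = 3 each). In each of these 3 lines KLF5 came next and its range overlapped that of the leading gene. The lowest of the 9 was KLF7 in A375, N87 and PC9, KLF11 in A549 and RT112, and KLF2 in H3122, at 1.59 ± 0.135 CPM per kilobase. In RT112 the range of KLF11 overlapped that of KLF7, next above it.

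**Figure D2:**
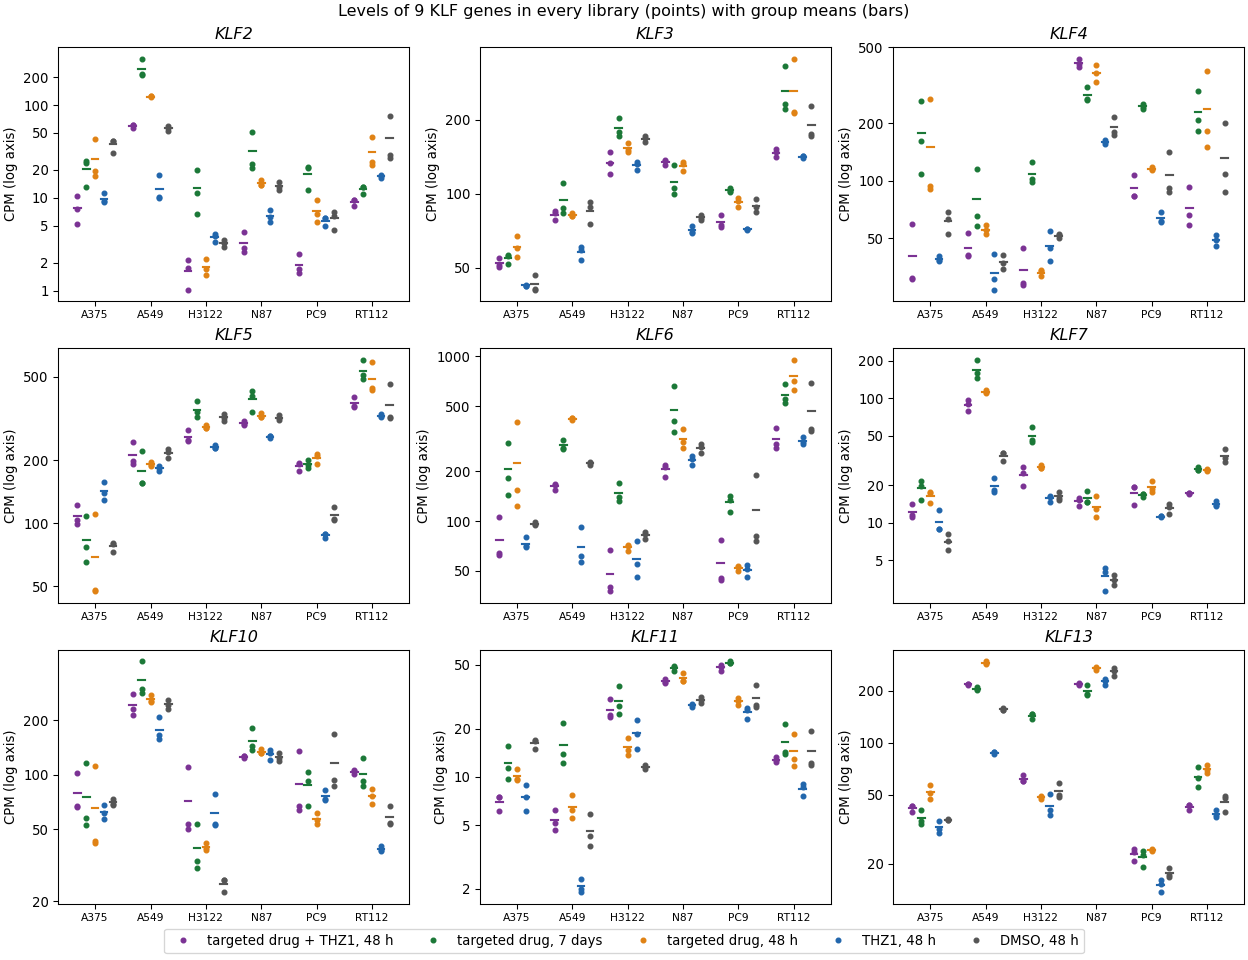
Points are the CPM of single libraries on a log axis for each KLF gene (panels), line and arm, with bars at the group means. KLF2 covers the widest range, from a group mean of 1.63 CPM in H3122 with both drugs to 247 CPM in A549 after 7 days of GSK1120212.

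The targeted drug for 48 h was compared with DMSO to see how the KLF genes respond when the driving kinase pathway is blocked. Among the activators, KLF7, studied mostly in neurons and fat cells, was higher on the drug in 5 of 6 lines. KLF7 had 111, 110.0 and 115 CPM in A549 on GSK1120212, against 36.2, 31.3 and 36.3 CPM in DMSO. It had 11.2, 16.3 and 12.9 CPM in N87 on Lapatinib, against 3.17, 3.79 and 3.46 CPM in DMSO. It had 14.3, 17.6 and 17.3 CPM in A375 on Vemurafenib, against 5.98, 7.06 and 8.05 CPM in DMSO. The groups did not overlap in these lines, nor in H3122 and PC9, where the log2 fold changes were 0.69 ± 0.12 and 0.69 ± 0.11 (SE). In bulk RNA, fewer cells that hold a transcript and less of it per cell cannot be told apart, and CPM does not show a change in total RNA per cell. RT112 went the other way, with 26.9, 25.9 and 26.3 CPM on BGJ398, against 39.0, 33.3 and 30.5 CPM in DMSO, a log2 fold change of -0.54 ± 0.08. Each of the 6 changes passed edgeR's quasi-likelihood test, with adjusted p between 2.49e-12 in A549 and 0.000146 in H3122.

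Across lines, KLF7 rose by 0.88 ± 0.31 on the log2 scale (SE, 6 lines; edgeR, adjusted p = 0.0304) and was the 1 of 9 called, where 18.6% of 11875 genes were called higher. This call was lost with no filter on low counts (0.80; edgeR, adjusted p = 0.0875) and without A375 (edgeR, adjusted p = 0.0923), A549 (0.0911), H3122 (0.0581), N87 (0.109) or PC9 (0.0607). Without RT112 the change was 1.27 (edgeR, adjusted p = 0.00602).

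The other activators moved in some lines. KLF2, known for quiescence in endothelium and T cells, rose in A549, with 124, 121 and 125 CPM on GSK1120212, against 56.3, 51.9 and 59.9 CPM in DMSO, and was not called in the other 5 lines. KLF4 rose in N87, with 403, 366 and 329 CPM on Lapatinib, against 215, 181 and 175 CPM in DMSO. KLF4 fell in H3122, with 33.5, 33.8 and 31.5 CPM on Crizotinib, against 50.1, 52.5 and 51.9 CPM in DMSO. None of these pairs of groups overlapped. KLF5 rose in PC9, with 192, 215 and 209 CPM on Erlotinib, against 105, 104 and 120.0 CPM in DMSO. KLF6, described as a tumor suppressor in several cancers, rose in A549, with 421, 422 and 413 CPM on GSK1120212, against 225, 220.2 and 229.6 CPM in DMSO. These groups were also separate.

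Several KLF4, KLF6 and KLF10 values here rested on the libraries that were high for these genes. In A375 on Vemurafenib KLF4 was called higher by 1.26 ± 0.37 and KLF6 by 1.2 ± 0.34, and without Vemurafenib replicate 1 the changes were 0.57 (edgeR, adjusted p = 0.0935) and 0.52 (adjusted p = 0.0646). In PC9 on Erlotinib KLF6 was called lower, at -1.02 ± 0.25, and KLF10 at -0.88 ± 0.24. Without DMSO replicate 4 these were -0.47 (edgeR, adjusted p = 0.00877) and -0.53 (adjusted p = 0.0401). The KLF6 call in RT112, at 0.55, was lost without BGJ398 replicate 1 (0.34; edgeR, adjusted p = 0.181), DMSO replicate 2 (0.158) or DMSO replicate 3 (0.155).

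Of the repressors, KLF13 rose on the targeted drug in A375, A549, PC9 and RT112. It had 295, 288 and 287 CPM in A549 on GSK1120212, against 155, 154 and 159.6 CPM in DMSO, and 24.3, 23.6 and 23.8 CPM in PC9 on Erlotinib, against 16.8, 17.2 and 18.8 CPM in DMSO. KLF3 rose in A375, N87 and PC9 and fell in H3122, and in N87 it had 124, 135 and 132 CPM on Lapatinib, against 80.1, 82.1 and 78.4 CPM in DMSO. The H3122 call of KLF3, at -0.23, was lost without any 1 of 4 libraries, with adjusted p up to 0.0924 in edgeR without Crizotinib replicate 2. KLF11 fell in A375, with 11.2, 9.69 and 9.51 CPM on Vemurafenib, against 14.9, 17.0 and 16.7 CPM in DMSO, and rose in N87 by 0.35 ± 0.06. Its higher call in A549 was lost without DMSO replicate 2 (edgeR, adjusted p = 0.163), DMSO replicate 4 (0.0936) or GSK1120212 replicate 2 (0.179).

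Over the 9 genes and 6 lines, 22 of 54 tests (40.7%) were called higher on the targeted drug and 7 (13%) lower. Over all genes 33% of 91800 tests were called higher and 33% lower. The lower calls were 11 with the arms of the contrast fitted alone, and no test of these shares was made.

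**Figure D3:**
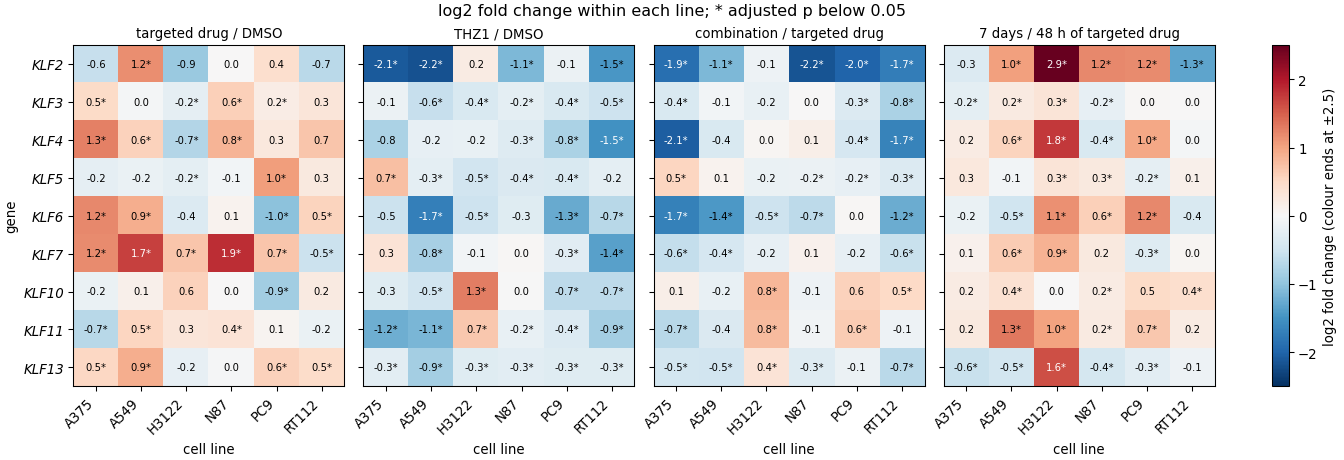
Cells give the log2 fold change of each KLF gene (rows) in each line (columns) for each comparison (panels), and an asterisk marks an adjusted p below 0.05 in edgeR. In the THZ1 panel 37 of 54 cells are called lower, and in the panel of 7 days against 48 h the H3122 column is called higher in 8 of 9 genes, against 30.5% of all genes in that line.

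THZ1 alone was compared with DMSO to see how the KLF genes respond to THZ1 without the targeted drug. Lower levels prevailed: 37 of 54 tests (68.5%) were called lower and 3 (5.56%) higher, where over all genes 21.3% were called lower and 20.6% higher. The THZ1 libraries lay wholly below the DMSO libraries in 39 of 54 tests (72.2%), against 22.2% over all genes, and wholly above them in 4, against 32%.

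The 2 lowest within-line changes on THZ1 among the 9 genes were those of KLF2 in A549 and A375. It had 17.5, 9.84 and 10.2 CPM in A549 on THZ1, against 56.3, 51.9 and 59.9 CPM in DMSO. It had 11.2, 9.17 and 9.01 CPM in A375 on THZ1, against 41.2, 30.3 and 41.3 CPM in DMSO. The groups were separate, with log2 fold changes of -2.18 ± 0.17 in A549 and -2.09 ± 0.31 in A375 (SE; edgeR, adjusted p = 3.44e-09 and 1.61e-05). It also fell in N87, by 1.13 ± 0.31, and in RT112, where the change of -1.45 ± 0.34 was -0.79 without the RT112 libraries that stood apart. KLF2 had 4.02, 3.37 and 3.91 CPM in H3122 on THZ1, against 3.24, 3.48 and 2.93 CPM in DMSO, and 6.0, 6.02 and 5.02 CPM in PC9 on THZ1, against 6.34, 4.55 and 7.11 CPM in DMSO. Those groups overlapped and neither change was called.

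KLF6 fell in A549, to 91.7, 56.3 and 61.0 CPM on THZ1, against 225, 220.2 and 229.6 CPM in DMSO. In PC9 it had 51.1, 53.8 and 46.0 CPM on THZ1, against 80.9, 76.1 and 191 CPM in DMSO, a change of -1.26 ± 0.25 that was -0.71 without DMSO replicate 4. Its calls in RT112 and H3122 were lost without single libraries, such as RT112 DMSO replicate 1 (-0.30; edgeR, adjusted p = 0.171) and H3122 THZ1 replicate 4 (-0.36; 0.218). Without the RT112 libraries that stood apart, the RT112 change of -0.69 in KLF6 was -0.30 and that of -1.52 in KLF4 was -1.07, both still called. KLF4 fell in N87, PC9 and RT112, and in PC9 it had 60.8, 61.3 and 68.8 CPM on THZ1, against 91.1, 87.4 and 141 CPM in DMSO. KLF7 fell in A549 and PC9 and most in RT112, to 13.8, 13.6 and 15 CPM on THZ1, against 39.0, 33.3 and 30.5 CPM in DMSO (-1.36 ± 0.09; edgeR, adjusted p = 7.95e-09). The PC9 call of KLF7 was lost without any 1 of 10 libraries of that line, with adjusted p up to 0.155, without DMSO replicate 4.

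Among the repressors, KLF13 was called lower in all 6 lines. It had 88.3, 85.7 and 88.1 CPM in A549 on THZ1, against 155, 154 and 159.6 CPM in DMSO (-0.85 ± 0.04; edgeR, adjusted p = 2.61e-13), and its changes in the other 5 lines lay between -0.30 and -0.26. In A375, H3122, PC9 and RT112 the call was lost without 1 of 2 to 4 libraries, with adjusted p up to 0.146, without H3122 DMSO replicate 4. KLF3 was called lower in 5 lines and had 42.2, 42.6 and 42.3 CPM in A375 on THZ1, against 40.9, 40.8 and 46.9 CPM in DMSO, groups that overlapped. The RT112 call of KLF3 was lost without any 1 of 8 libraries (adjusted p up to 0.189 in edgeR, without DMSO replicate 1) and the N87 call without any 1 of 3. The KLF3 changes, from -0.58 to -0.15, did not pass the test of a difference between lines (edgeR F test, adjusted p = 0.212). Fitted changes of KLF3, KLF4, KLF6 and KLF13 were below 0 in all 6 lines, as in 8.57% of all genes.

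A few genes rose on THZ1. KLF5 had 157, 129 and 139 CPM in A375 on THZ1, against 79.9, 72.7 and 80.2 CPM in DMSO (0.75 ± 0.23; edgeR, adjusted p = 0.00891), and fell in A549, H3122, N87 and PC9, where the A549 call was lost without any 1 of 5 libraries. KLF10, first described as a TGF-beta-induced early gene, had 78.0, 52.9 and 53.6 CPM in H3122 on THZ1, against 22.4, 26.4 and 26.1 CPM in DMSO (1.28 ± 0.26; adjusted p = 0.00141 in edgeR). KLF11, a close relative of KLF10, had 22.8, 15 and 18.4 CPM in H3122 on THZ1, against 11.6, 11.9 and 11.2 CPM in DMSO (0.68 ± 0.16; adjusted p = 0.00581 in edgeR). All 3 pairs of groups were separate. KLF11 fell in the other 5 lines, where the N87 call was lost without any 1 of 12 libraries. Its PC9 change of -0.35 was -0.198 without DMSO replicate 4, still called (edgeR, adjusted p = 0.03885). KLF10 fell in A549, PC9 and RT112. The changes of KLF11 and KLF10 differed between lines (edgeR F test, adjusted p = 1.09e-08 and 3.39e-05). The PC9 call of KLF10 was lost without DMSO replicate 4 (-0.31; edgeR, adjusted p = 0.246), THZ1 replicate 3 (0.0657) or THZ1 replicate 4 (0.0709).

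Across lines no KLF gene was called on THZ1 in edgeR or DESeq2, where 0.0253% of all genes were called lower. At an unadjusted p under 0.05, KLF2, KLF3, KLF4 and KLF6 were lower, where 11.4% of all genes passed in either direction. With the THZ1 and DMSO arms fitted alone, KLF3 (edgeR, adjusted p = 0.0272), KLF4 (0.0492), KLF6 (0.028) and KLF13 (0.0491) were called lower. In that fit 3.63% of all genes were called lower. The median log2 change of the 9 genes across lines was -0.43.

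**Figure D4:**
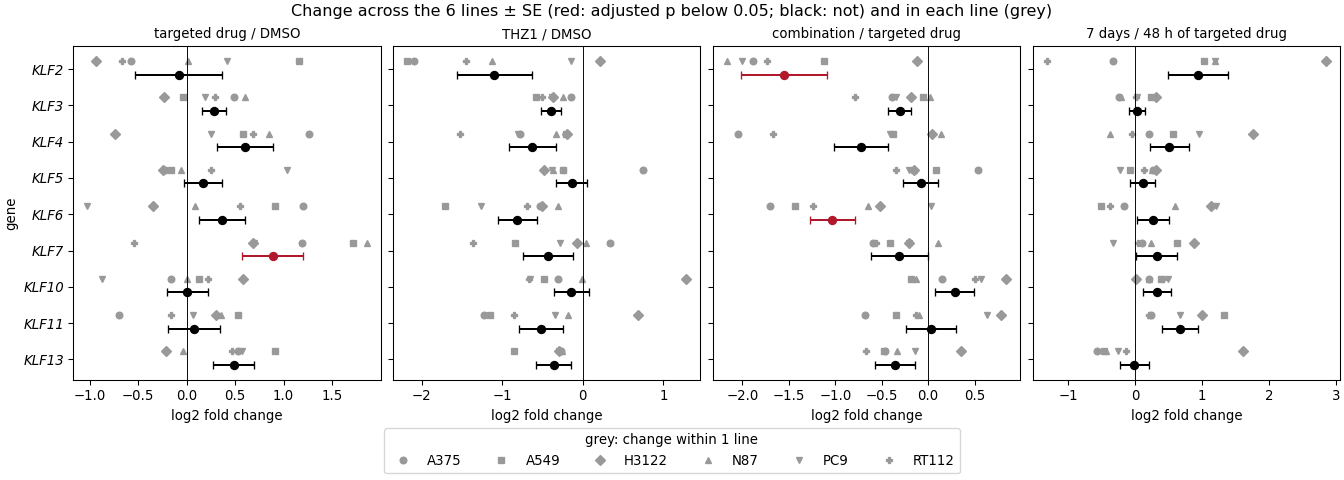
Large points are the log2 fold change across the 6 lines with its SE, red where the adjusted p is below 0.05 in edgeR, and grey symbols are the changes within single lines. KLF7 on the targeted drug (0.88) and KLF2 and KLF6 in the combination (-1.55 and -1.03) are red.

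The combination was compared with the targeted drug alone, both for 48 h, to see what THZ1 adds when the driving pathway is blocked. KLF2 and KLF6 were lower across lines, at -1.55 ± 0.46 and -1.03 ± 0.24 on the log2 scale (SE, 6 lines; edgeR, adjusted p = 0.0384 and 0.0113), where 4.34% of all genes were called lower. The KLF2 call was lost with no filter on low counts (edgeR, adjusted p = 0.072) and the KLF6 call with the arms of the contrast alone (adjusted p = 0.0685 in edgeR).

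KLF2 fell in 5 lines. It had 4.28, 2.85 and 2.57 CPM in N87 with both drugs, against 13.9, 15.5 and 13.7 CPM on Lapatinib alone. It had 2.48, 1.69 and 1.53 CPM in PC9 with both drugs, against 9.53, 5.42 and 6.73 CPM on Erlotinib alone. It had 7.63, 10.5 and 5.19 CPM in A375 with both drugs, against 42.6, 19.2 and 17.4 CPM on Vemurafenib alone. The groups were separate in these lines and in A549 and RT112. The RT112 change of -1.73 was -1.37 without the RT112 libraries that stood apart. In H3122, KLF2 had 1.75, 1.02 and 2.11 CPM with both drugs, against 1.72, 2.18 and 1.49 CPM on Crizotinib alone, groups that overlapped. The fitted change was below 0 in all 6 lines, as in 8.28% of all genes, and did not pass the test of a difference between lines (edgeR F test, adjusted p = 0.152). The call across lines was lost without A375 (edgeR, adjusted p = 0.133), N87 (0.113), PC9 (0.159) or RT112 (0.0988).

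KLF6 fell in every line but PC9. It had 167, 155 and 165 CPM in A549 with both drugs, against 421, 422 and 413 CPM on GSK1120212 alone. It had 367, 279 and 293 CPM in RT112 with both drugs, against 952, 707 and 629 CPM on BGJ398 alone. It had 63.9, 106 and 61.8 CPM in A375 with both drugs, against 398, 123 and 154 CPM on Vemurafenib alone. These groups were separate, and the A375 change of -1.70 was -1.03 without Vemurafenib replicate 1. The RT112 change of -1.24 was -1.18 without the RT112 libraries that stood apart. In H3122 the groups overlapped, and the call there was lost without any 1 of 9 libraries of that line, with adjusted p up to 0.184 in edgeR, without combination replicate 3. In PC9, KLF6 had 76.9, 45.3 and 43.9 CPM with both drugs, against 49.6, 53.3 and 52.6 CPM on Erlotinib alone, which overlapped. The PC9 change of 0.03 turned to -0.29 (edgeR, adjusted p = 0.389) without combination replicate 1. The call across lines was lost without A375 (edgeR, adjusted p = 0.0869) or RT112 (0.0775).

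KLF4 fell in A375, PC9 and RT112. It had 30.9, 59.4 and 30.6 CPM in A375 with both drugs, against 269, 90.1 and 94.1 CPM on Vemurafenib alone (-2.05 ± 0.38; edgeR, adjusted p = 9.46e-05), and the change was -1.37 without Vemurafenib replicate 1. It had 92.5, 58.5 and 65.9 CPM in RT112 with both drugs, against 378, 182 and 151 CPM on BGJ398 alone (-1.67 ± 0.35; edgeR, adjusted p = 0.000572; -1.38 without the RT112 libraries that stood apart). In N87, where KLF4 was high, it had 437, 408 and 394 CPM with both drugs, against 403, 366 and 329 CPM on Lapatinib alone, groups that overlapped. The KLF4 change differed between lines (edgeR F test, adjusted p = 3.86e-07). KLF7 fell in A375, A549 and RT112, by at most 0.60 ± 0.16, and KLF5 fell in N87, PC9 and RT112 and rose in A375. The KLF5 calls in A375, N87 and RT112 were lost without single libraries, such as A375 Vemurafenib replicate 4 (0.29; edgeR, adjusted p = 0.303).

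The repressors moved both ways. KLF13 fell in A375, A549, N87 and RT112 and rose in H3122, where it had 65.1, 60.1 and 60.0 CPM with both drugs, against 47.4, 48.7 and 49.4 CPM on Crizotinib alone. KLF3 fell in A375, PC9 and RT112, where the change of -0.79 was -0.48 without BGJ398 replicate 1. KLF11 rose in H3122 and PC9 and fell in A375, and in PC9 it had 50.1, 48.8 and 46.1 CPM with both drugs, against 29.9, 31.0 and 28.0 CPM on Erlotinib alone (0.63 ± 0.09; edgeR, adjusted p = 2.18e-06). KLF10 rose in RT112, with 105, 101 and 106 CPM with both drugs, against 69.0, 83.2 and 75.9 CPM on BGJ398 alone. Its higher call in H3122, at 0.84, was lost without combination replicate 1 (0.38; edgeR, adjusted p = 0.153). In all, 27 of 54 tests (50%) were called lower with both drugs and 6 (11.1%) higher, where over all genes 27.4% were called lower and 27.5% higher.

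The targeted drug for 7 days was compared with 48 h, which asks how levels stand in the cells that remain under longer treatment. In H3122 on Crizotinib 8 of 9 KLF genes were called higher, where 30.5% of all genes tested in that line were. KLF13 had 147, 137 and 147 CPM in H3122 at 7 days, against 47.4, 48.7 and 49.4 CPM at 48 h (1.61 ± 0.08; edgeR, adjusted p = 9.07e-12). KLF4 had 126, 102 and 98.5 CPM at 7 days, against 33.5, 33.8 and 31.5 CPM at 48 h (1.77 ± 0.14; edgeR, adjusted p = 4.59e-09). KLF2 had 20.0, 11.2 and 6.68 CPM at 7 days, against 1.72, 2.18 and 1.49 CPM at 48 h (2.85 ± 0.35; edgeR, adjusted p = 9.39e-07). The groups were separate for these 3 genes, and the KLF2 change was 2.36 without 7-day replicate 1. KLF2 is also an endothelial gene, and the endothelial marker CDH5 had 30.9, 23.4 and 29.4 CPM in H3122 at 7 days, against 49.6, 51.8 and 50.2 CPM at 48 h. VWF had 0.553, 0.591 and 0.683 CPM at 7 days, against 7.46, 9.29 and 7.84 CPM at 48 h, and KDR had 10.7, 9.61 and 11.8 CPM at 7 days, against 3.12, 3.79 and 2.08 CPM at 48 h. CDH5 and VWF were thus lower and KDR higher, and the part of such cells in the KLF2 change was not tested. The 6 endothelial and fibroblast markers summed to 177 to 227 CPM at 7 days, against 242 to 258 CPM at 48 h, with COL3A1 and PDGFRB under 1 CPM in every H3122 library.

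KLF2 rose at 7 days in A549, N87 and PC9 as well. It had 317, 213 and 209.6 CPM in A549 at 7 days, against 124, 121 and 125 CPM at 48 h. It had 12, 21.5 and 21.1 CPM in PC9 at 7 days, against 9.53, 5.42 and 6.73 CPM at 48 h. In N87 it had 51.6, 20.9 and 23.1 CPM at 7 days, against 13.9, 15.5 and 13.7 CPM at 48 h, and the change of 1.2 was 0.66 without 7-day replicate 1. The groups were separate in each of these lines. In RT112 it fell, with 13.2, 10.9 and 12.9 CPM at 7 days, against 45.7, 24.3 and 22.8 CPM at 48 h, and that call was lost without BGJ398 48 h replicate 1 (-0.90; edgeR, adjusted p = 0.0632). The KLF2 changes, from -1.32 to 2.85, differed between lines (edgeR F test, adjusted p = 9.11e-10).

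Of the other activators, KLF6 rose in PC9, with 114, 134 and 143 CPM at 7 days, against 49.6, 53.3 and 52.6 CPM at 48 h. KLF6 fell in A549, with 311, 275 and 278 CPM at 7 days, against 421, 422 and 413 CPM at 48 h. KLF4 rose in PC9 by 0.96 ± 0.12 and fell in N87 by 0.38 ± 0.08 (-0.24 without Lapatinib 48 h replicate 1), and its higher call in A549 was lost without 7-day replicate 1 (0.20; edgeR, adjusted p = 0.232). KLF7 rose in A549, with 203, 145 and 161 CPM at 7 days, against 111, 110.0 and 115 CPM at 48 h. KLF5 rose in N87 by 0.25 ± 0.05 (0.39 without 7-day replicate 1) and fell in PC9 by 0.23 ± 0.05, where the groups overlapped. Among the repressors, KLF3 was called higher in A549 (0.23) and lower in A375 (-0.24) and N87 (-0.21), with overlapping groups, and each of these 3 calls was lost without any 1 of 2 to 5 libraries. KLF13 fell in A375, A549, N87 and PC9, while it rose in H3122, and this difference between lines had the lowest adjusted p of the 9 (edgeR F test, adjusted p = 5.72e-31). The PC9 call of KLF13 was lost without 7-day replicate 4 (edgeR, adjusted p = 0.142) or Erlotinib 48 h replicate 2 (0.0589).

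KLF11 rose at 7 days in A549, H3122, N87 and PC9, and in A549 it had 21.6, 13.9 and 12.2 CPM at 7 days, against 7.76, 5.56 and 6.17 CPM at 48 h (1.32 ± 0.20; edgeR, adjusted p = 1.21e-05). KLF10 was called higher in A549, N87 and RT112. The KLF10 calls in A549 and N87 were lost without 7-day replicate 1 of the line (edgeR, adjusted p = 0.138 and 0.121), and the RT112 change of 0.42 was 0.18 without RT112 replicate 1. The fitted changes of KLF10 and KLF11 were above 0 in all 6 lines, as in 3.66% of all genes. Over genes and lines, 24 of 54 tests (44.4%) were called higher at 7 days and 11 (20.4%) lower, where over all genes 23.8% were called higher and 24% lower. Across lines 0% of genes were called in edgeR, 6.41% had an unadjusted p under 0.05, KLF2 and KLF11 among them, and DESeq2 called 26 genes.

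The interaction gives how far the combination departs from the sum of both single-drug changes on the log2 scale. Of 54 tests, 13 (24.1%) were called above that sum and 3 (5.56%) below it, where over all genes 17.7% were above and 16.8% below. The 3 calls below the sum were 7 with the 4 arms of the contrast fitted alone, 6 without the 5 libraries apart from their group and 5 with genes under 5 CPM left out, so the share below moves with these choices. A549 and PC9 each held 4 of the 16 calls. In A549 all 4 lay above the sum, and KLF2 departed there by 1.06 ± 0.22 (SE; edgeR, adjusted p = 0.00111). The A549 call of KLF7, at 0.42, was lost without any 1 of 9 libraries, with adjusted p up to 0.118 in edgeR, without THZ1 replicate 2. In PC9 KLF11 departed by 0.98 ± 0.13, KLF6 by 1.29 ± 0.37, KLF10 by 1.23 ± 0.34 and KLF2 by -1.86 ± 0.42 (SE). The KLF6 value was 0.74 without PC9 DMSO replicate 4, and that of KLF10 0.78 without combination replicate 1. The KLF5 calls in H3122 and N87, at 0.33 and 0.22, were each lost without any 1 of the 12 libraries in the contrast. In RT112, KLF10 departed by 1.16 ± 0.17 and KLF7 by 0.80 ± 0.12, while KLF7 departed by -0.94 ± 0.25 in A375. The RT112 call of KLF13, at -0.37, was lost without RT112 replicate 1 in 4 arms (-0.22; edgeR, adjusted p = 0.0586). Across lines 0% of genes were called in edgeR and 2.16% had an unadjusted p under 0.05, no KLF gene among them.

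Most responses differed between lines. In edgeR's F test of that difference, 9 of 9 KLF genes passed on the targeted drug (74.8% of 19655 genes), 8 on THZ1 (61.4%), 8 in the combination (73.8%), 8 at 7 days (71.6%) and 7 in the interaction (57.3%). Against those shares of all genes the counts say little that is particular to the KLF genes. Those that did not pass were KLF3 on THZ1, KLF2 in the combination, KLF10 at 7 days (edgeR, adjusted p = 0.874), and KLF4 and KLF5 in the interaction (edgeR, adjusted p = 0.0913 and 0.35).

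Of 17 further KLF and SP genes, 16 were in the table and 8 could be tested across lines. On the targeted drug 1 of the 8 rose and 2 fell in edgeR, where 18.6% of all genes rose and 18.5% fell. Counts of lines beside these genes go by the sign of the fitted change in a line, called or not. KLF9, which responds to steroid hormones, rose by 0.93 ± 0.34 (higher in 5 of 6 lines; edgeR, adjusted p = 0.0375). SP4 fell by 0.85 ± 0.24 (lower in 5 of 6 lines) and KLF16 by 0.72 ± 0.19 (lower in 6 of 6 lines). In the combination SP2 was called lower, at -0.43 ± 0.11. The median change of the 8 on the targeted drug was 0.08, against 0.28 for the 9 KLF genes.

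Of 12 co-regulators that KLF factors bind, 2 rose and 2 fell on the targeted drug, beside the 18.6% and 18.5% of all genes given above. The acetyltransferase KAT2B rose by 1.2 ± 0.40 across lines (fitted above 0 in 6 of 6 lines), and the deacetylase HDAC2 fell by 0.49 ± 0.11 (fitted below 0 in 6 of 6 lines). In the combination the acetyltransferase KAT2A was called higher, by 0.54 ± 0.16 (fitted above 0 in 6 of 6 lines), where 3.7% of all genes were. Of 16 genes upstream of KLF genes 15 were tested, and FOXO3 and MEF2A rose on the targeted drug, by 0.64 ± 0.15 and 0.58 ± 0.14. In the combination EGR1 fell by 2.04 ± 0.58 and SMAD4, which relays TGF-beta signals, by 0.52 ± 0.14, each fitted below 0 in 6 of 6 lines (edgeR, adjusted p = 0.0304 and 0.0237). Of 8 genes for turnover of KLF proteins, the ubiquitin ligase gene FBXO32 was called, higher by 1.43 ± 0.46 on the targeted drug.

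Of 18 genes known as KLF targets 12 were tested, and on the targeted drug 2 rose and 5 fell, against 18.6% and 18.5% of all genes. BIRC5, an inhibitor of apoptosis that is high in dividing cells, fell by 1.98 ± 0.59, CCND1, which encodes cyclin D1, by 1.65 ± 0.29, and ODC1, of polyamine synthesis, by 1.31 ± 0.29. In the combination CCND1 was called higher, by 0.97 ± 0.28. On THZ1 alone, at 7 days and in the interaction 0 genes of these 5 lists were called across lines in edgeR. At an unadjusted p under 0.05 these were 6 genes on THZ1, 1 at 7 days and 0 in the interaction. The 5 lists held 8, 12, 15, 8 and 12 genes tested across lines, in the order given here. Over all genes 11.4% passed at that level on THZ1, 6.41% at 7 days and 2.16% in the interaction. The genes of these lists have other regulators too, and the part of KLF proteins in their changes was not tested.

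The genes whose pattern was most like each member are given as a description, from Pearson's r over the 30 group means of log2 CPM after each line's mean was taken off. KLF4 was most like YIPF4 (0.89), KLF7 most like HSD11B1L (0.88) and KLF3 most like SATB1 (0.88). KLF6 was most like JUND (0.84) and RHOB (0.84), KLF2 most like OIP5-AS1 (0.83) and KLF13 most like UNC5B (0.83). KLF11 was most like SLC27A1 (0.79), KLF5 most like RIPK2 (0.79) and KLF10 most like CCN1 (0.64). The median r over all genes lay between -0.12 and 0.04 for the 9 members. The points share lines, libraries and depth, so no test was made.

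Among the members themselves r was highest for KLF3 and KLF4 (0.82), KLF2 and KLF6 (0.75), KLF4 and KLF6 (0.75) and KLF3 and KLF7 (0.73), over 30 group means each. KLF5 reached at most 0.34 with any other member, and KLF10 at most 0.23 except with KLF11 (0.54). KLF3 had expected counts that were not whole in 89 of 90 libraries, and it overlaps the antisense gene KLF3-AS1. No source used here tells whether counting used strand, so reads of the pair cannot be told apart, and the KLF3 values carry that limit. The other 8 members had whole expected counts in every library.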

How the data were processed

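The 9 members, the gene lists and the comparisons were chosen with earlier results of these data known. RNA was extracted with RNeasy micro kits and libraries were made with NEBNext Ultra, per the labels' protocols. The deposited table holds expected counts per gene, made by the authors with Bowtie2 2.2.1 and RSEM 1.2.12 on hg19, per the submitters' processing notes. No source used here names the annotation or any use of strand. In each library 7.83 to 13.75% of values were not whole, and counts were rounded for the tests. Of 53893 gene IDs, 47111 matched a symbol, and CPM is per library total, while tests used TMM factors (0.918 to 1.072).

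Tests were edgeR 4.0.16 quasi-likelihood tests in R 4.3.3, with p-values adjusted by Benjamini-Hochberg over all genes tested and called below 0.05. Within a line, 1 fit held its 15 libraries and 5 arms, with filterByExpr. Across lines, each arm of a line entered as 1 summed library, with a term for each line, for genes that reached 1 CPM in 3 or more libraries of each line. The difference between lines was an F test over 90 libraries. Fold changes are on the log2 scale. Recovery of changed genes was tested on simulated data. Alternatives were median-of-ratios size factors, library totals, other filters, DESeq2 1.42.0, the arms of a contrast alone, a replicate block, and leaving out libraries or lines. A no-filter fit within lines was replaced, after seeing the data, by a bias-adjusted one. Named genes were the 9 members, up to 3 called genes of each list and comparison with the largest changes, and the genes of highest r with a member, of which the first 1 or 2 are given. Replicate numbers were not used as pairs: in 0 of 8 comparisons with 3 shared numbers was every pair's correlation of deviations over 0.1. RT112 shared 2 numbers in each comparison, so that count leaves it out, and its replicate 1 pairs correlated at 0.109 to 0.2824. Depth (5.64 to 14.36 M counts) limits the lowest members most: KLF2 had as few as 9 counts in a library.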

Additional observations from a re-analysis of the deposited data

Results flagged for a closer look

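For 5 of the 45 sets of changes over 6 lines (9 KLF genes in 5 comparisons), 1 line stood apart by the gap test of Dixon at its 95% level, which chance passes in about 1 of 20 sets. On THZ1 against DMSO, the log2 change of KLF10 was 1.28 in H3122, while the other 5 lines lay between -0.66 and -0.01. At 7 days against 48 h of the targeted drug, the log2 change of KLF13 was 1.61 in H3122, while the other 5 lines lay between -0.56 and -0.13. On THZ1 against DMSO, the log2 change of KLF13 was -0.85 in A549, while the other 5 lines lay between -0.30 and -0.26. In the interaction of both drugs, the log2 change of KLF4 was -1.27 in A375, while the other 5 lines lay between -0.17 and 0.47. That change was not called (edgeR, adjusted p = 0.0733) and was -0.58 without Vemurafenib 48 h replicate 1, and KLF4 did not pass the F test between lines there (adjusted p = 0.0913 in edgeR). On THZ1 against DMSO, the log2 change of KLF5 was 0.75 in A375, while the other 5 lines lay between -0.48 and -0.25.

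The changes of 40 of these 45 sets differed between lines in edgeR's F test, which 57.3 to 74.8% of all genes passed in each comparison, and the distance between the lowest and the highest line is given on the log2 scale. On the targeted drug against DMSO, the distance was 2.40 for KLF7, 2.23 for KLF6, 2.09 for KLF2, 2.0 for KLF4, 1.46 for KLF10, 1.29 for KLF5, 1.23 for KLF11, 1.12 for KLF13 and 0.83 for KLF3, with adjusted p between 7.7e-22 and 0.00524 in edgeR. On THZ1 against DMSO, the distance was 2.39 for KLF2, 1.95 for KLF10, 1.91 for KLF11, 1.70 for KLF7, 1.39 for KLF6, 1.33 for KLF4, 1.23 for KLF5 and 0.59 for KLF13, with adjusted p between 4.09e-11 and 0.0258 in edgeR. With THZ1 added to the targeted drug for 48 h, the distance was 2.19 for KLF4, 1.72 for KLF6, 1.47 for KLF11, 1.03 for KLF13, 1.02 for KLF10, 0.87 for KLF5, 0.81 for KLF3 and 0.70 for KLF7, with adjusted p between 6.42e-12 and 0.0315 in edgeR. At 7 days against 48 h of the targeted drug, the distance was 4.17 for KLF2, 2.17 for KLF13, 2.15 for KLF4, 1.71 for KLF6, 1.21 for KLF7, 1.11 for KLF11, 0.55 for KLF3 and 0.54 for KLF5, with adjusted p between 5.72e-31 and 0.0458 in edgeR. In the interaction of both drugs, the distance was 2.92 for KLF2, 2.46 for KLF6, 1.74 for KLF7, 1.67 for KLF10, 1.02 for KLF13, 0.90 for KLF11 and 0.79 for KLF3, with adjusted p between 2.61e-07 and 0.0385 in edgeR. Line, drug and dose differ together, so these distances belong to no 1 of them, and no cause was tested.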

How the results depend on the processing

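Alternatives moved some counts of KLF genes called. Within lines, lower calls on the targeted drug were 7, against 13 with the replicate block and 11 with the arms of the contrast alone. Lower calls at 7 days were 11, against 7 with library totals alone. Lower calls of the interaction were 3, against 5 with a 5 CPM filter, 10 with the replicate block, 7 with the arms alone and 6 without the 5 libraries apart from their group. With no filter on low counts, the planned fits within lines and between lines gave infinite prior degrees of freedom, in 6 of 6 lines, so that a gene's own spread no longer counted, and they were left out. In their place, chosen after seeing the data, edgeR's bias-adjusted quasi-likelihood with no filter gave 10 lower calls on the targeted drug and 13 higher and 5 lower of the interaction, and with the usual filter 7, 13 and 3. Across lines, higher calls on the targeted drug were 1, against 0 with no filter and 2 with a 5 CPM filter. Lower calls on THZ1 were 0, against 4 with the arms alone, and in the combination 2, against 1 with no filter and 1 with the arms alone. Over all genes tested across lines, THZ1 called 10, against 194 in DESeq2 and 693 with the arms alone, the combination 954, against 438 with no filter, 1484 in DESeq2 and 192 with the arms alone, and 7 days 0, against 26 in DESeq2.

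Leaving out 1 library moved lower calls of the interaction between 2 and 6. Leaving out 1 line moved higher calls on the targeted drug across lines between 0 and 3, and lower calls in the combination between 0 and 2. The KLF2 change in H3122 in the combination, not called, lay between -0.35 and 0.11 (0.03 without Crizotinib 48 h replicate 3), and that of KLF6 in PC9 between -0.29 and 0.16. KLF6 there was -0.15 with the replicate block (edgeR, adjusted p = 0.613). Correlations of deviations lay between -0.0616 and 0.0675 outside RT112 and between 0.0088 and 0.2824 in RT112. The numbers were not taken as pairs in any line. In RT112 the replicate 1 pairs had 0.2824, 0.2313 and 0.109, and these values do not settle whether its samples are paired. The block ended 6 of the calls within lines, DESeq2 14, library totals alone 17, the arms alone 7, size factors by median of ratios 4, the 5 CPM filter 3, the bias-adjusted fit 2 (5 with no filter), and leaving out the 5 libraries 1. Together these ended 29 of 153 calls. On THZ1 they were KLF3 in N87 and RT112, KLF5 in A549, KLF6 in H3122, KLF7 in PC9, KLF10 in PC9, KLF11 in N87 and KLF13 in A375, PC9 and RT112. On the targeted drug they were KLF3 in H3122 and PC9, KLF5 in H3122 and KLF6 in RT112. In the combination they were KLF5 in A375, N87 and RT112 and KLF6 and KLF10 in H3122. At 7 days they were KLF3 in A375, A549 and N87, KLF5, KLF7 and KLF13 in PC9 and KLF10 in N87, and in the interaction KLF5 in H3122 and N87 and KLF13 in RT112. Of the 29, 7 were ended by 3 or more of these alternatives: KLF11 in N87, KLF7 in PC9 and KLF6 in H3122 on THZ1, KLF5 in A375 in the combination, KLF3 in A375 and N87 at 7 days, and KLF5 in N87 in the interaction. Leaving out 1 library was not counted in the 29. It ended further calls, such as those of KLF4 and KLF6 in A375 on the targeted drug and KLF2 in RT112 at 7 days. The cause of these shifts was not tested. Leaving out each line in turn for the difference between lines was not run.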

Other observations

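The annotation holds IDs for pseudogenes that resemble KLF2, and 2 of them had counts in N87 that moved unlike KLF2. KLF2P1 averaged 23.9 ± 1.38 CPM in N87 with Lapatinib and THZ1, 11.0 ± 0.32 CPM on Lapatinib for 48 h, 6.22 ± 0.719 CPM on THZ1 and 3.44 ± 0.881 CPM in DMSO (SD, n = 3 each). Its log2 change was 1.58 on Lapatinib against DMSO and 1.08 in the combination against Lapatinib (edgeR, adjusted p = 2.49e-08 and 2.34e-07). KLF2P4 averaged 15 ± 1.27 CPM with both drugs, 7.44 ± 1.26 CPM on Lapatinib for 48 h, 4.56 ± 0.213 CPM on THZ1 and 3.34 ± 0.792 CPM in DMSO. KLF2 itself fell there, with a log2 change of -2.17 ± 0.36 in the combination against Lapatinib, and had whole expected counts in every library, while both pseudogene IDs had values that were not whole in 40 of 90 libraries. Both were chosen after their values were seen. Where the reads counted under these IDs come from was not tested.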
